A study of Mus musculus with 22 samples.

Results

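This report covers the whole-brain comparison of PWS-IC pups with their wild-type littermates at postnatal day 0, by RNA sequencing. PWS-IC mice are heterozygous for a deletion of the Prader-Willi imprinting centre (labelled HET PWS-ICdel), carried on the chromosome from the father, and their littermates are labelled WT. The libraries were selected on measured values: of the 9 PWS-IC-series libraries with a column of counts, 7 were kept, because the *Snrpn* counts of the other 2 contradicted their genotype labels. Kept were the PWS-IC pups 1_10_IC, 4_4_IC and 4_5_IC and the wild-type pups 1_1_IC, 1_5_IC, 4_3_IC and 4_6_IC, where the first number is the litter. These 7 are a subset of 20 libraries with counts in the whole series, whose other model, PWS-cr, lacks a shorter paternal segment with the *Snord116* genes. In the lists of values below, PWS-IC pups and wild-type pups follow each other in the order just given. Each pup is a separate animal, and all 3 PWS-IC pups are labelled female while 3 of the 4 wild-type pups are labelled male.

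Genomic imprinting leaves some genes active on the copy from a single parent. In the Prader-Willi interval of mouse chromosome 7 the paternal copy of *Snrpn*, *Ndn*, *Magel2*, *Mkrn3*, *Peg12* and the long non-coding RNA *Snhg14* is active, and the imprinting centre at the *Snrpn* promoter keeps it so. *Ube3a*, a ubiquitin ligase gene, is read from the maternal copy in neurons, where *Snhg14* runs antisense to it on the paternal copy. Loss of the paternal genes in people gives Prader-Willi syndrome, with weak muscle tone and poor feeding at birth and overeating later.

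The 7 libraries held 50924227 to 62103143 counts each, with medians of 54784701 in PWS-IC and 56010459 in wild type. *Snrpn*, the gene that chose the libraries, read 8.06, 4.87 and 6.67 CPM (counts scaled to library size with edgeR's TMM factors) in the PWS-IC pups and 286, 252, 253 and 241 in the wild-type pups. Of the 2 libraries left out, 1_3_IC is labelled PWS-IC and read 389.5 CPM of *Snrpn*, and 1_7_IC is labelled wild type and read 5.59. Their sex-linked genes also went against their labels: the library labelled 1_3_IC, a female by label, had 1.38 CPM of *Xist*, the RNA that coats the inactive X, and 68.6 CPM of the Y-linked *Eif2s3y*. The library labelled 1_7_IC, a male by label, had 2031 CPM of *Xist* and 0.147 CPM of *Eif2s3y*. In the 7 libraries *Xist* and *Eif2s3y* matched the labelled sexes. Pup 1_10_IC stood apart on the second principal component (27.1% of the variance, at -52.6 against -7.32 to 18.8 in the other 6), and it is the only PWS-IC pup kept from litter 1. Markers of other tissue were present at unequal levels. The 12 pituitary markers summed to 8.54 to 9.65 CPM in PWS-IC and 6.43 to 7.95 in wild type, against 8602 to 9982 and 8715 to 9329 CPM for the 15 neuronal markers. Markers of caudal hindbrain and spinal cord ranged from 33.9 to 104 CPM in PWS-IC and 13.0 to 104 in wild type.

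The fit with litter and genotype tested 21913 genes and called 53 at an adjusted p under 0.05 (edgeR quasi-likelihood test, Benjamini-Hochberg), which is 0.242% of them. Without an adjustment, 1367 genes (6.24%) were higher and 1431 (6.53%) lower in PWS-IC at p under 0.05, and the median log2 fold change of all genes was 0.00. Of the 53, 28 lie between the start of *Atp10a* and the end of *Peg12* (chromosome 7, 58656166 to 62464510, mm10) and 25 lie elsewhere. Because *Snrpn* counts chose the libraries, the genotype differences of the interval are given as a description, without p-values.

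Before the levels, the upstream sequences of 3 silenced protein-coding genes are shown, since these genes fell together and are known to be methylated on the silent copy. Each runs over the 250 bases before the start in the RefSeq tables (GRCm38.p6, 5′ to 3′ on the gene's strand), with CG dinucleotides, the sites of DNA methylation, in capitals.
Ndn (chr7:62348027-62348276, plus strand): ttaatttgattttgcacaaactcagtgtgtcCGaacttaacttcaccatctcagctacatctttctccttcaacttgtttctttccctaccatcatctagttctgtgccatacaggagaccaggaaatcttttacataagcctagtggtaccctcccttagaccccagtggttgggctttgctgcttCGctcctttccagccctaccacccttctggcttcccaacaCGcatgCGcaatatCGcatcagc
Magel2 (chr7:62376729-62376978, plus strand): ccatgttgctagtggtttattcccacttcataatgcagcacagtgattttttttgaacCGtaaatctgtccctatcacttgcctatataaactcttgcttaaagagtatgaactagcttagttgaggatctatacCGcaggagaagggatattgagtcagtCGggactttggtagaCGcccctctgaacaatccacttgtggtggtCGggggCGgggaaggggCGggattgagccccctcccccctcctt
Mkrn3 (chr7:62420154-62420403, minus strand): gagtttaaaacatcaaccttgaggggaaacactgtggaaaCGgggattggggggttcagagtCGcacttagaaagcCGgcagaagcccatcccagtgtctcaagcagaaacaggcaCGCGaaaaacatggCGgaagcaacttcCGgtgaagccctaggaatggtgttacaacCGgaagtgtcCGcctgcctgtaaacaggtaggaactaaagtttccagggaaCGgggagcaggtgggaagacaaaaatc
The letters CG stand 5 times upstream of *Ndn*, 7 times upstream of *Magel2* and 10 times upstream of *Mkrn3*. Of 32851 such windows, 55.6%, 46.3% and 37.8% hold at least as many, with a median of 6.

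All 28 called genes of the interval were lower in PWS-IC, and in none did the groups overlap. Several, such as *Gm44643* and *Mir344-2*, passed the filter through the wild-type pups alone, and no gene found in PWS-IC pups alone could pass it. The count of 28 is thus a description and not a test. *Ndn*, which encodes necdin, a MAGE-family protein of postmitotic neurons, read 16.04, 16.2 and 14.2 CPM in PWS-IC and 507, 545, 501 and 468 in wild type. The PWS-IC pups thus held 3.07% of the wild-type mean (log2 fold change -5.01 ± 0.08, SE). *Magel2*, another MAGE gene, active in the hypothalamus, read 1.498, 1.64 and 1.73 against 27.3, 40.6, 42.5 and 39.4 CPM (4.33%). Here wild-type pup 1_1_IC was lower than the other wild-type pups and still far above every PWS-IC pup. *Mkrn3*, a ring-finger gene known for its part in the timing of puberty, read 0.948, 0.822 and 0.856 against 23.0, 19.2, 19.4 and 19.9 CPM (4.30%). *Peg12*, at the far end of the interval, rested on 8, 13 and 13 counts in PWS-IC against 180, 195, 189 and 155 in wild type (6.24%). Its CPM fell by 3.98 on the log2 scale. *Snrpn*, a splicing-protein gene, held 2.53% of the wild-type mean. Per length of transcript, as TPM, these genes differ widely in level in the wild-type brain: *Ndn* had a mean of 519.9 TPM and *Snrpn* 454 TPM, while *Magel2* had 30.8, *Mkrn3* 30.4 and *Peg12* 4.66.

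**Figure D1:**
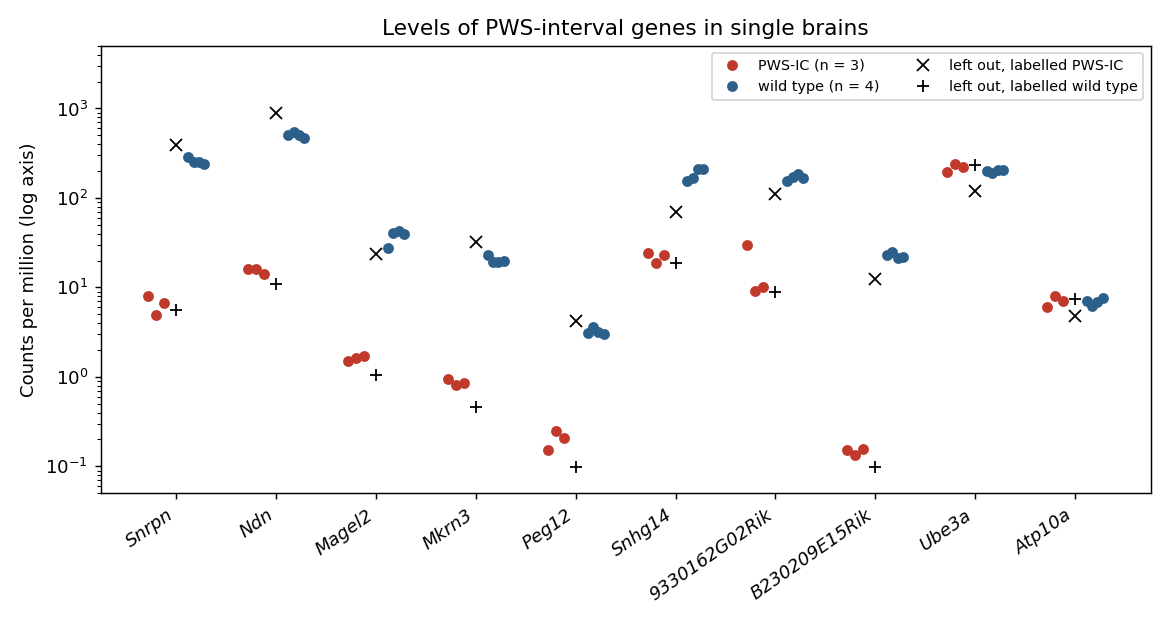
Levels in CPM (log axis) of 10 genes of the interval in single brains: red points are the 3 PWS-IC pups, blue points the 4 wild-type pups, and the cross and plus signs the 2 libraries left out. For *Snrpn* the cross, labelled PWS-IC, sits at 389.5 CPM among or above the wild-type pups and the plus sign, labelled wild type, at 5.59 with the PWS-IC pups, while the groups share 1 range for *Ube3a* and *Atp10a*.

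On the other side of *Snrpn*, the long transcript *Snhg14*, host of the *Snord115* and *Snord116* RNAs, read 24.2, 18.8 and 22.9 CPM in PWS-IC and 155, 169, 212 and 209 in wild type. It kept 11.8% of the wild-type level, a larger share than *Snrpn*, *Ndn*, *Magel2*, *Mkrn3* or *Peg12*. Among the 27 called genes with a count in any PWS-IC pup, the remaining level ran from 0.650% to 12.5% of wild type, under 5% in 17 of them and higher in 10. *Gm44830* was the highest at 12.5%. It lies on the strand of *Ube3a* within that gene's span, and the unstranded libraries cannot tell its reads from those of overlapping genes. Some other models on this side of *Snrpn* were also at the upper end, with *Gm38393* at 12.1%, *9330162G02Rik* at 9.59% and *A230103L15Rik* at 8.58%. Others there were low, with *Gm44562* at 2.23%, *Gm44560* at 2.93%, *Gm24966* at 3.23% and *Gm44559* at 3.70%. *Gm38393* spans part of *Snrpn*, so reads of the 2 may be split between them.

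The lowest remaining levels were in long intergenic RNAs between *Snrpn* and *Ndn*. *B230209E15Rik* had 8, 7 and 10 counts in the PWS-IC pups and 1327, 1337, 1284 and 1109 in the wild-type pups, or 0.650% of the wild-type CPM. *Gm44644* was at 0.743% and *A230006K03Rik* at 0.813%. *Gm44643* had no count in any PWS-IC pup against 15, 15, 27 and 17 in wild type. With a floor of 3 counts over the group, it was at least 18.6-fold lower. The same stretch holds *A230057D06Rik*, with 63, 97 and 99 counts against 2008, 2605, 3136 and 2721, and 3.25% of the wild-type level. In wild type *B230209E15Rik* reached 49.4 TPM, above *Magel2* and above *Snhg14* at 27.2. A bulk brain cannot tell a low level in every cell from expression kept in a few cells. As a description, since *Snrpn*, which set them aside, is among the 28 genes, 1_7_IC was nearer the PWS-IC mean for 28 and 1_3_IC nearer the wild-type mean for 22. *Gm38393* at 6.79 CPM in 1_3_IC, against 24.2 to 38.5 in wild type, is among the other 6.

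**Figure D2:**
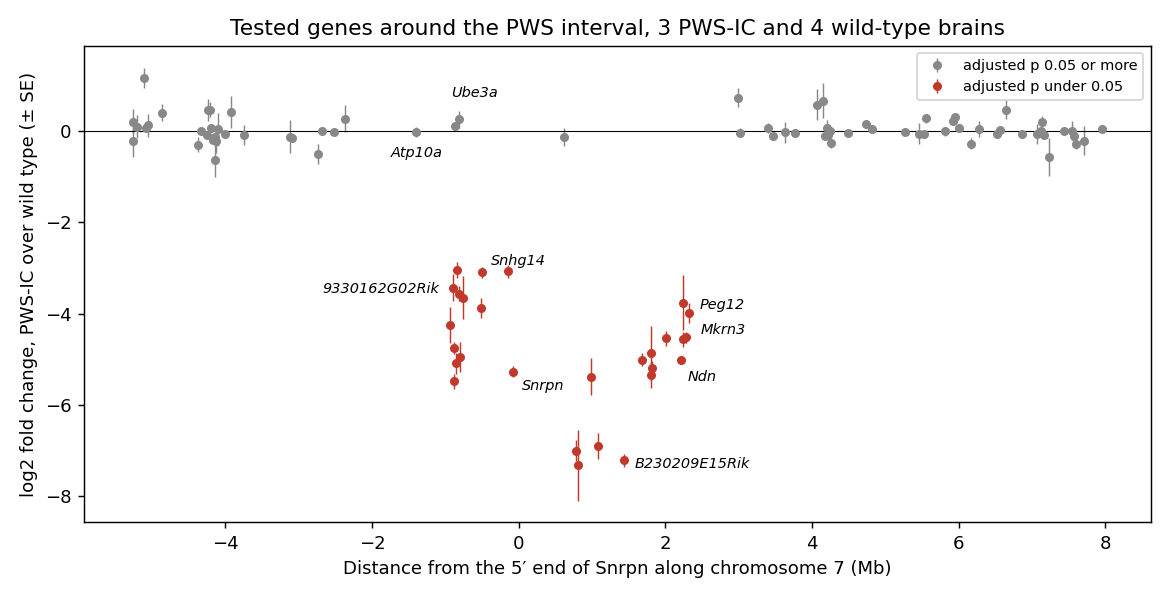
Log2 fold change of PWS-IC over wild type (± SE) of the 101 tested genes within 8 Mb of the 5′ end of *Snrpn*, against distance along chromosome 7 in Mb, with red for an adjusted p under 0.05. The 28 red points lie between -7.32 and -3.04, and the 69 genes outside the interval have none. Within the interval red is a description and not a test, because *Snrpn* counts chose the libraries.

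The microRNA genes of the miR-344 family lie in the silenced stretch, and *Mir344-2* was the member with enough counts to be tested. Its polyadenylated reads numbered 0, 2 and 0 in PWS-IC and 19, 18, 29 and 20 in wild type, which count precursor RNA and not the mature microRNA. Summed over the 13 hairpins of the family, PWS-IC pups had 2, 3 and 1 counts and wild-type pups 36, 41, 56 and 52. The mature sequences of the 3p arms (RefSeq, GRCm38.p6) are shown to tell the members apart, with the seed (bases 2 to 8) in capitals.
miR-344-3p, of Mir344 and Mir344-2: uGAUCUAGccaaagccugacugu
miR-344c-3p: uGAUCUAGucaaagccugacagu
miR-344b-3p: cAUUUAGCcaaagccugacugu
miR-344d-3p: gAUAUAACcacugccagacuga
miR-344e-3p: gAUAUAACcaaagccugacuau
miR-344h-3p: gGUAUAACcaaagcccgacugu
The first pair share a seed, as do miR-344d-3p and miR-344e-3p, so the 8 different 3p sequences of the family hold 6 seeds.

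Not all of the interval was low. Of its 279 annotated genes, 32 passed the filter, and 4 of those were not called. *Ube3a* read 193, 238 and 224 CPM in PWS-IC and 202, 188, 204 and 205 in wild type, with overlapping groups (log2 fold change 0.10 ± 0.06). Within litter 4 it stood at 0.17 and within litter 1 at -0.02. *Atp10a*, a lipid flippase gene at the edge of the interval, read 6.10, 8.06 and 7.02 against 7.14, 6.18, 6.95 and 7.71 CPM (-0.02 ± 0.11). *Gm44829*, which lies within *Snhg14* on the other strand, stood at 0.25 and the pseudogene *Gm10297* at -0.13. Of the 247 genes under the filter, 122 had at least 1 count. Outside the borders the median was near that of wild type, while single genes differed more. Of 69 tested genes outside the interval but within 8 Mb of *Snrpn*, edgeR called 0 and DESeq2 1 (223 of 21913 over all genes in DESeq2). Their fold changes ran from -0.63 to 1.16, the last for *Gm44894*, with a median of -0.01. At an unadjusted p under 0.05, 11 passed, where 6.24% of all genes were higher and 6.53% lower. Of 17 neighbours listed as not imprinted, both tools called 0 and 1 was lower at an unadjusted p under 0.05, with a median of -0.06.

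Antisense to *Ube3a*, 1 transcript differed between litters. *9330162G02Rik* read 29.7 CPM in 1_10_IC but 9.19 in 4_4_IC and 10.2 in 4_5_IC, against 156, 172, 187 and 168 in wild type. The fold change was -2.46 in litter 1 and -4.19 in litter 4, and the interaction of litter and genotype passed (log2 difference -1.73, adjusted p = 0.00189, edgeR). It is annotated on the strand opposite *Ube3a*, and the unstranded reads where they overlap cannot be assigned to either gene. The interaction was called for 187 genes (0.853%) over the whole table. Of these 145 were lowest and 35 highest in 1_10_IC of all 7 pups. Among the 187 were 36 of the 382 tested zinc-finger (Zfp) genes, all lowest there, beside 0.853% of all genes. The interaction therefore rests on 1 pup, and whether litter or that brain accounts for it cannot be told apart.

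Outside the interval, 25 of 21881 tested genes were called (0.114%), 18 higher and 7 lower, and the groups overlapped in 0 of the 25. The filter asks for 10 counts in 4 libraries. A gene present in the 3 PWS-IC pups alone could not be tested, while one present in the 4 wild-type pups alone could. Genes called by a small p tend to have separate groups, and the share without overlap was not counted over all tested genes. The same limit holds wherever a lack of overlap is given here. On the rest of chromosome 7, 7 of 1691 tested genes were called (0.414%), against 18 of 20190 on other chromosomes (0.0892%). The 7 lie 10.96 to 60.6 Mb from the interval. Of the 18 elsewhere, 5 are processed copies, that is, intronless copies of a messenger RNA, whose 3 parent genes are on chromosome 7. So 12 of the 25 lie on that chromosome or are named for a gene there, a grouping chosen after the values were seen. The share of such copies among all tested genes was not counted, so the 12 have no background. Of the 5 copies, 3 are of *Rps15a*, and reads can be split between them.

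Of the 25 called genes, the largest change was in a copy of *Rps15a*, which encodes a protein of the small ribosomal subunit. *Rps15a-ps7* on chromosome 2 read 5.19, 4.74 and 5.17 CPM in PWS-IC and 0.259, 0.205, 0.285 and 0.216 in wild type. It rose by 4.36 ± 0.17 (log2, SE; adjusted p = 7.77e-08, edgeR). *Rps15a-ps6* on chromosome 11 read 3.01, 2.27 and 2.68 against 0.276, 0.447, 0.403 and 0.294 CPM and rose by 2.92 ± 0.21 (adjusted p = 1.97e-05). It lies within *Nudcd3*, which stood at -0.04. *Rps15a-ps4* on chromosome 4 rose by 1.49 ± 0.25 (adjusted p = 0.0445) and was called in 1 of the 7 fits that each left out a library, the one without 1_5_IC. *Rps15a-ps8*, named after its values were seen, was under the filter with 95, 67 and 119 counts in PWS-IC and 0, 0, 1 and 0 in wild type. Found in the 3 PWS-IC pups almost alone, it could not reach the filter's 4 libraries and was not tested. The parent *Rps15a* itself, at 256 CPM in PWS-IC and 251 in wild type, stood at 0.03 (adjusted p = 0.883).

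A stretch of the *Rps15a* coding sequence (GENCODE M21, mm10, coding positions 121 to 180 from the A of the start codon) is set beside the called copies, because reads this alike can be placed on either. Capitals mark bases that differ from the parent.
Rps15a: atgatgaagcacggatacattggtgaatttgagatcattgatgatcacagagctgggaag
Rps15a-ps7: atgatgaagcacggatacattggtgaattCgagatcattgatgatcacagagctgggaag
Rps15a-ps6: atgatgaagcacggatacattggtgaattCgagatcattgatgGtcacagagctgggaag
Rps15a-ps4: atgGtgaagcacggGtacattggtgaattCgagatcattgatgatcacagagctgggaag
Over the coding length of 393 bases, *Rps15a-ps7* is 98.7% identical to the parent with 4 substitutions, *Rps15a-ps6* 98.7% with 5 and *Rps15a-ps4* 97.5% with 9. T150C (the parent's base, the position in its coding sequence, the copy's base) is shared by these 3 copies and by 7 of the 8 copies in the table. The copy without it, *Rps15a-ps8*, is less alike, at 90.8% identity with 30 substitutions. Counts of processed copies are uncertain, since the reads of near-identical sequences can be split between them. The strain of origin of each pup's alleles was not analysed here.

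*Tmem41b-ps* on chromosome 9, a copy of a gene for an endoplasmic reticulum membrane protein, went the other way. It read 1.19, 0.0764 and 0.0793 CPM in PWS-IC and 3.90, 4.19, 1.65 and 1.83 in wild type (log2 fold change -2.73 ± 0.40, adjusted p = 0.0162, edgeR). Wild-type levels already differed between the litters, and the drop was 1.73 in litter 1 and 3.96 in litter 4. The interaction passed (log2 difference -2.68, adjusted p = 0.0239). Without 4_3_IC the call was lost. *Mrpl48-ps* rose by 0.92 ± 0.16 (adjusted p = 0.0476) and was called in 0 of the 7 fits that left out a library. Their parents *Tmem41b* (0.15) and *Mrpl48* (0.23) were not called.

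The transcripts on chromosome 7 itself were mostly unnamed non-coding models. *B230206I08Rik*, within the synaptic scaffold gene *Dlg2*, read 7.32, 12.3 and 12.5 CPM in PWS-IC and 2.17, 2.14, 2.60 and 3.08 in wild type and rose by 1.99 ± 0.12 (adjusted p = 4.71e-06). *Dlg2* stood at -0.05 (adjusted p = 0.791). *Gm44645* read 25.3, 40.3 and 43.4 against 12.04, 11.9, 12.7 and 14.8 CPM (1.40 ± 0.11, adjusted p = 5.46e-05). Both were highest in the litter 4 PWS-IC pups, and neither passed the interaction of litter and genotype (adjusted p of 0.422 and 0.154). *Gm44907* rose by 1.69 ± 0.19, *Gm45847* by 1.15 ± 0.18 and *Gm45094*, which overlaps *Cebpg* on the same strand, by 1.05 ± 0.18. *Cebpg* stood at -0.12. *4632427E13Rik* fell by 0.95 ± 0.11, from 9.16, 10.2, 11.4 and 9.95 CPM in wild type to 4.42, 6.07 and 5.85. The seventh gene is *Hbb-bt*, a beta-globin gene described with the red-cell genes.

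**Figure D3:**
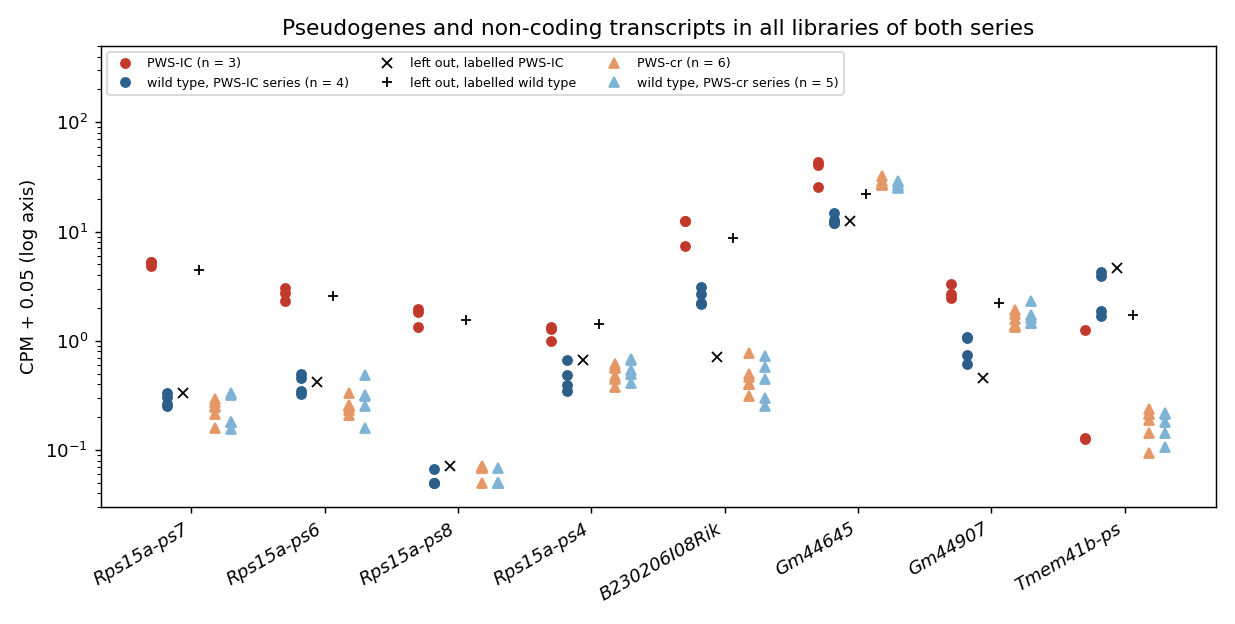
Levels (CPM + 0.05, log axis) of 8 pseudogenes and non-coding transcripts in all 20 libraries with counts: red and dark blue circles are the PWS-IC and wild-type pups compared here, the cross and plus sign the 2 libraries left out, and orange and pale blue triangles the PWS-cr pups and their wild-type littermates. For *Rps15a-ps7* the plus sign, labelled wild type, is at 4.38 CPM and the cross at 0.280.

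The 2 libraries left out had no part in choosing these genes, but *Snrpn* counts set them aside. By *Xist* and *Eif2s3y* the library labelled 1_3_IC read as male and that labelled 1_7_IC as female. Sex and the *Snrpn* level are thus tied in them too, and their nearness cannot tell genotype from sex. Nearness was not counted over all genes. Across the 25, the library labelled 1_3_IC was nearer the wild-type mean for 20 and the library labelled 1_7_IC was nearer the PWS-IC mean for 17, on log2(CPM + 0.5). For *Rps15a-ps7* they read 0.280 and 4.38 CPM and for *B230206I08Rik* 0.667 and 8.66. *4632427E13Rik* went the other way, with 6.67 CPM in 1_3_IC and 9.14 in 1_7_IC. The 11 PWS-cr-series libraries, of both genotypes, were low for *Rps15a-ps7* (0.104 to 0.281 CPM) and *B230206I08Rik* (0.205 to 0.723). For *Gm44645*, all 11 stood at 25.2 to 32.1 CPM, above the 4 wild-type pups of the PWS-IC series, and for *Gm45847* at 4.53 to 5.52 CPM, near or above the PWS-IC pups at 4.23, 4.76 and 2.89. The 2 series were scaled separately, and the difference between them was not tested.

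**Figure D4:**
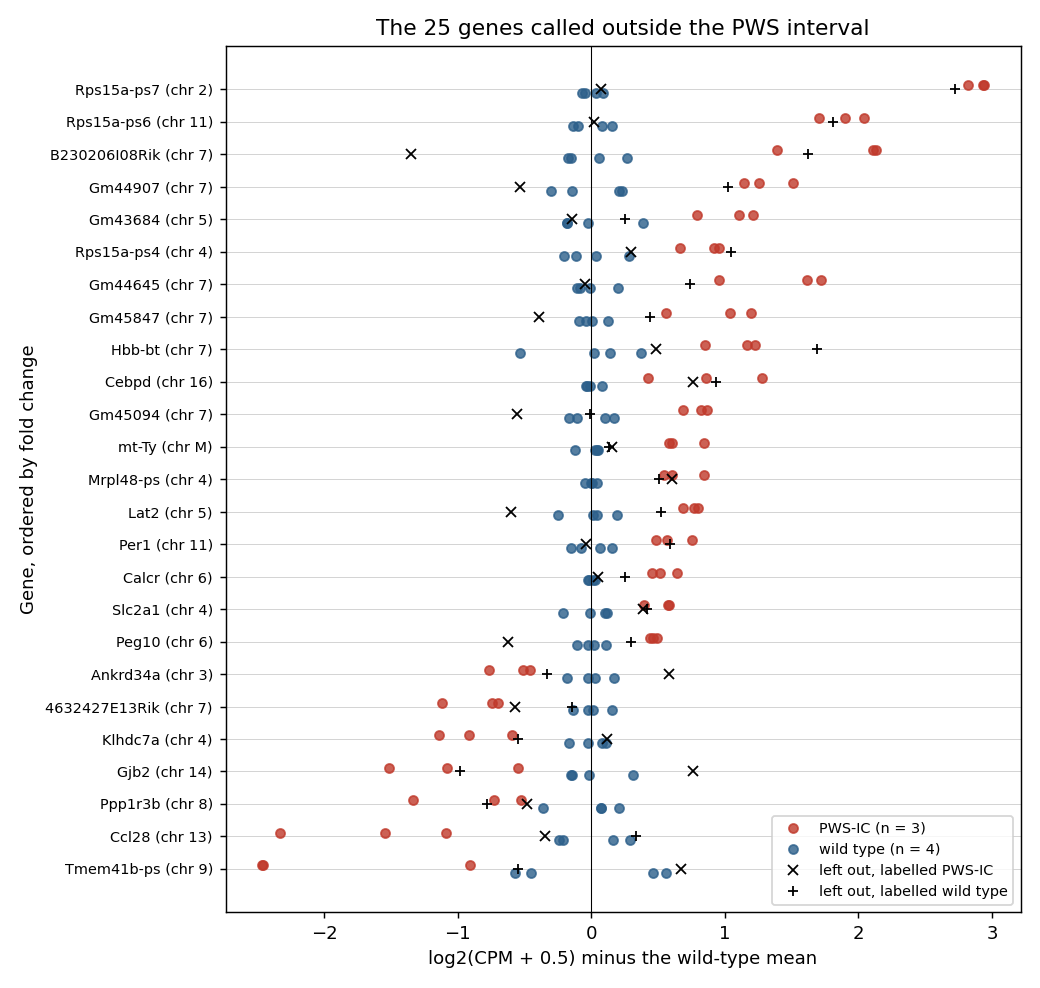
The 25 genes called outside the interval, ordered by fold change, as log2(CPM + 0.5) minus the wild-type mean: red points are the 3 PWS-IC pups, blue points the 4 wild-type pups, and the cross and plus sign the 2 libraries left out (labelled PWS-IC and wild type). Red and blue do not overlap for any of the 25, and the rise is largest for *Rps15a-ps7*.

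Among the protein-coding genes, 2 neighbours in an imprinted cluster on chromosome 6 rose. *Peg10*, a paternally expressed gene derived from a retrotransposon, read 209, 200.4 and 204 CPM in PWS-IC and 137, 145, 150.1 and 159.6 in wild type (0.46 ± 0.06, adjusted p = 0.00453, edgeR). *Calcr*, the calcitonin receptor gene, read 16.5, 15.1 and 14.5 against 10.3, 10.5, 10.6 and 10.2 CPM (0.57 ± 0.08, adjusted p = 0.0150). *Asb4*, of the same cluster, stood at 0.33 ± 0.10 (adjusted p = 0.264). *Peg10* kept its call in each of the 7 fits that left out a library and lost it with the 2 other libraries added, at 0.52 with their genotypes exchanged and at 0.43 with sexes exchanged as well and sex in the model. *Calcr* kept it without 1_1_IC and without 1_5_IC only. Across the 11 PWS-cr-series libraries of both genotypes, scaled separately, *Peg10* ranged from 116 to 226 CPM and *Calcr* from 4.19 to 14.8. Of 37 tested imprinted genes from other loci, these were the 2 called, and the median was 0.00. At an unadjusted p under 0.05, 6 were higher and 2 lower, where 6.24% of all genes were higher and 6.53% lower.

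*Per1*, a core gene of the circadian clock that glucocorticoids also induce, read 61.6, 50.9 and 54.0 CPM in PWS-IC and 32.7, 38.0, 34.4 and 40.4 in wild type. It rose by 0.62 ± 0.09 (adjusted p = 0.0175), by 0.80 in litter 1 and 0.49 in litter 4. The call was lost without 1_10_IC, without 4_5_IC or without 4_3_IC. Of the 23 tested clock genes *Per1* was the 1 called, and the median was 0.03. At an unadjusted p under 0.05, 3 were higher and 0 lower, where 6.24% of all genes were higher and 6.53% lower. Per the labels, all brains were taken in the same morning hour. *Slc2a1*, the glucose transporter of the blood-brain barrier, rose by 0.54 ± 0.09 (adjusted p = 0.0330), and *Cebpd*, a transcription factor of the acute-phase response, by 1.07 ± 0.18 (adjusted p = 0.0476). *Lat2*, an adaptor of immune receptors, rose by 0.92 ± 0.16, and *mt-Ty*, a mitochondrial transfer RNA, and *Gm43684* rose as well.

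Those that fell included *Ccl28*, a chemokine, from 4.38, 6.54, 4.48 and 5.95 CPM in wild type to 0.645, 2.22 and 1.47 (-1.998 ± 0.31, adjusted p = 0.0262). The library labelled 1_7_IC, low in *Snrpn*, read 6.78 CPM, above every wild-type pup, and with the 2 left-out libraries added under exchanged genotypes the value was -0.89 and not called. *Gjb2*, which encodes connexin 26, a gap-junction protein of the meninges, fell by 1.04 ± 0.17 (adjusted p = 0.0443). Of 17 markers of meninges and fibroblasts it was the 1 called. At an unadjusted p under 0.05, 3 were lower, where 6.53% of all genes were lower. The median was -0.17, from 0.19 in litter 1 to -0.43 in litter 4. Summed levels were 484 to 774 CPM in PWS-IC and 622 to 694 in wild type. The part of these cells in the *Gjb2* value was not tested. *Ppp1r3b*, a glycogen-targeting subunit of protein phosphatase 1, fell by 1.08 ± 0.18, *Klhdc7a* by 1.00 ± 0.17 and *Ankrd34a* by 0.57 ± 0.10. These 3 kept their calls in 3, 1 and 1 of the 7 fits without a library.

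Of 20 tested glucocorticoid-responsive genes, 2 were called (*Per1* and *Cebpd*, both higher), and 13 were higher and 1 lower at an unadjusted p under 0.05, where 6.24% of all genes were higher. The list's median was 0.31, against 0.00 for all genes. *Mt1*, a metallothionein gene, read 22.5, 15.03 and 20.6 CPM against 12.2, 13.6, 13.6 and 14.2, with no overlap (0.54 ± 0.13, adjusted p = 0.184). *Nfkbia*, an inhibitor of NF-kappa-B, stood at 0.42 ± 0.10 (adjusted p = 0.188), with 30.4 CPM in 1_10_IC. The 1 that was lower, named after its values were seen, was *Angptl4* at -0.59 ± 0.16 (adjusted p = 0.239). DESeq2 called 5 of the 20, and 223 of the 21913 genes in all. In each litter 17 of the 20 were positive, and the list summed to 569, 491 and 502 CPM in PWS-IC and 410.1 to 447 in wild type. Without 1_10_IC, whose sum was highest, 12 were higher at an unadjusted p under 0.05. With sex in the model the 13 became 8, and with the 2 left-out libraries added under exchanged genotypes they became 7.

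**Figure D5:**
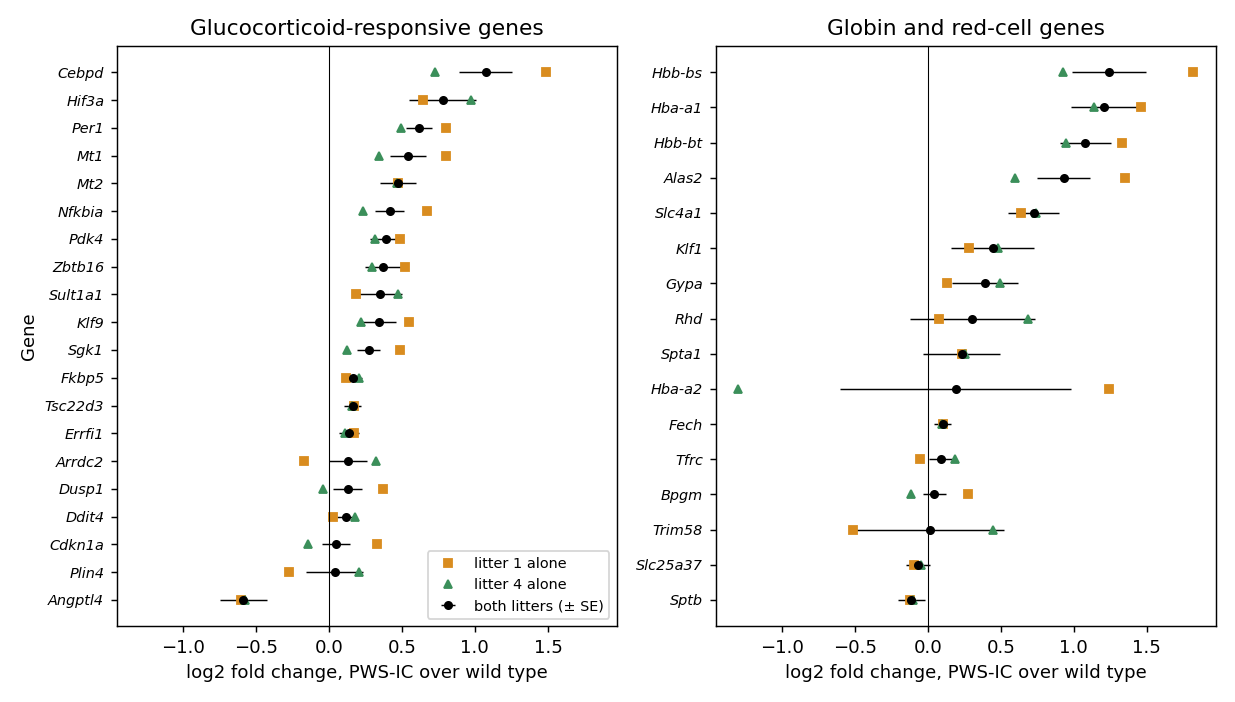
Log2 fold change of PWS-IC over wild type for the 20 tested glucocorticoid-responsive genes (left) and the 16 tested globin and red-cell genes (right): black points are both litters together with their SE, orange squares litter 1 alone and green triangles litter 4 alone. *Per1* and *Cebpd* stand at 0.62 and 1.07, and the globin genes *Hbb-bs*, *Hba-a1* and *Hbb-bt* at 1.24, 1.21 and 1.08.

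Among the red-cell genes the beta-globin gene *Hbb-bt* rose. It read 48.5, 46.4 and 37.3 CPM in PWS-IC and 14.0, 26.6, 20.7 and 22.6 in wild type (1.08 ± 0.17, adjusted p = 0.0365). *Hba-a1* (1.21 ± 0.23, adjusted p = 0.0724), *Hbb-bs* (1.24 ± 0.25, adjusted p = 0.105) and *Alas2*, the haem-synthesis enzyme of red cells (0.93 ± 0.18, adjusted p = 0.0961), did not pass, though none of their groups overlapped. Of 16 tested genes 1 was called, against 0.242% of all genes, and the median was 0.27. At an unadjusted p under 0.05, 5 were higher and 0 lower, where 6.24% of all genes were higher and 6.53% lower. The list summed to 807 to 1022 CPM in PWS-IC and 487 to 666 in wild type. In bulk tissue a change in the number of cells of a type and in the RNA per cell cannot be told apart, here or elsewhere. DESeq2 called 2 of the 16, beside 223 of 21913 genes in all. The PWS-cr-series libraries held 8.02 to 15.1 CPM of *Hbb-bt*. The library labelled 1_7_IC had the highest *Hbb-bt* level of the series' 9, at 66.8 CPM.

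Of 17 tested genes of insulin-like growth factors edgeR called 0 and DESeq2 1 (223 of 21913 over all genes in DESeq2). At an unadjusted p under 0.05, 3 passed, where 6.24% of all genes were higher and 6.53% lower. *Igf1*, insulin-like growth factor 1, read 28.2, 34.5 and 31.3 CPM against 44.6, 24.7, 38.7 and 40.3, with wild-type pup 1_5_IC below every PWS-IC pup (-0.28 ± 0.16, adjusted p = 0.466). It passed with sex in the model, at -0.81, where 1_1_IC alone tells genotype from sex. It also passed without a filter on low counts, at -0.28, and did not pass under any other alternative. *Igfbp3*, which binds it in blood, stood at 0.57 ± 0.10 with no overlap between the groups and an adjusted p of 0.0508. Of 25 myelin and oligodendrocyte genes 0 were called by edgeR or DESeq2, and the median was -0.22. At an unadjusted p under 0.05, 1 was higher and 5 lower, beside the same shares of all genes. *Gpr17*, a receptor of committed oligodendrocyte precursors, had the smallest p of the list (-0.92 ± 0.21, adjusted p = 0.188), with 16.02, 29.1 and 22.2 CPM against 57.9, 39.1, 37.7 and 35.3. The amount of caudal tissue differed between pups: *Hoxb8*, a gene of spinal cord, read 12.8, 2.71 and 0.190 CPM in PWS-IC and 12.9, 0.0186, 8.65 and 1.96 in wild type. Its part in the *Igf1* and myelin values was not tested.

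GABA-A receptor subunits, the channels of fast inhibition, had 0 of 16 called by edgeR or DESeq2 and a median of -0.12. At an unadjusted p under 0.05, 0 were higher and 6 lower. Of all genes 6.24% were higher and 6.53% lower, shares that also stand beside the next lists. By the same tools, of 20 serotonin-system genes 0 were called, 1 was higher and 3 lower at an unadjusted p under 0.05, led by *Htr1b* (-0.39 ± 0.13, adjusted p = 0.289). Of 23 feeding and social neuropeptide genes 0 were called and 1 was higher and 1 lower at an unadjusted p under 0.05. *Agrp*, which drives feeding, read 0.341, 0.936 and 0.713 CPM against 0.931, 0.950, 1.09 and 0.746 (-0.59 ± 0.28, adjusted p = 0.408). Of 15 genes of prohormone processing 0 were called and 0 passed an unadjusted p under 0.05.

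Sex and genotype were nearly tied in these pups. In litter 4 both PWS-IC pups are labelled female and both wild-type pups male. Only 1_1_IC, the single wild-type female, lets a fit tell genotype from sex, so values with sex in the model rest on that pup. In the PWS-cr series, where both sexes occur in both genotypes, sex was called for 7 of 22172 genes (0.0316%), and of the 25 genes above 24 were tested there and 0 were called for sex or for genotype (edgeR, with 1 and 0 at an unadjusted p under 0.05). With sex added to the model of the 7 pups, 9 of the 25 kept their call: *Rps15a-ps7*, *Rps15a-ps6*, *B230206I08Rik*, *Gm44645*, *Gm44907*, *Peg10*, *Per1*, *Hbb-bt* and *Ppp1r3b*. Leaving out each of the 7 pups in turn kept 7 of the 25 in every fit, namely *Rps15a-ps7*, *Rps15a-ps6*, *B230206I08Rik*, *Gm44645*, *Gm44907*, *4632427E13Rik* and *Peg10*. *Tmem41b-ps* was called in 6 of the 7 fits, *Per1* and *Ccl28* in 4, *Slc2a1*, *Hbb-bt* and *Ppp1r3b* in 3, and *Calcr*, *Gjb2* and *Gm43684* in 2. *Cebpd*, *Gm45847*, *Gm45094*, *Rps15a-ps4*, *Klhdc7a* and *Ankrd34a* were called in 1, and *mt-Ty*, *Lat2* and *Mrpl48-ps* in 0. Without 1_10_IC, 9 of the 25 were called, and without 4_3_IC, 8. Under DESeq2 all 25 were called, but it called 223 of the 21913 genes, 199 of them outside the interval.

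A joint fit of both series set the genotype effect of PWS-IC against that of PWS-cr, each relative to its own wild-type littermates. The difference was called for 43 of 23574 genes (0.182%), 31 in the interval and 12 outside. Because *Snrpn* counts chose the PWS-IC-series libraries, the 31 are a description and not a test. Of the 12, 9 are among the 25. The same 7 pups gave both results, so this recurrence is no separate support for those genes. For *Rps15a-ps7* the effects differed by 4.46 ± 0.40 (adjusted p = 8.02e-06) and for *Gm44645* by 1.32 ± 0.14 (adjusted p = 7.24e-05). *Per1* stood at -0.05 in PWS-cr and differed by 0.66 ± 0.11 (adjusted p = 0.0188). *Ndn* and *Magel2* stood at 0.75 and -0.26 in PWS-cr beside -5.01 and -4.57 in PWS-IC, and *Snhg14*, which loses a segment in PWS-cr, at -1.67 beside -3.10.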

How the data were processed

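Polyadenylated RNA of whole brains was sequenced as paired, unstranded libraries. The authors mapped reads to mm10 with STAR, with multi-mapping alignments in random order, and counted them per gene with featureCounts; versions are not given in the sources used here. The counts analysed are those the authors deposited, not normalized. Their deposited TPM, scaled by gene length, serves only to compare levels between genes. The deposited results of their own DESeq2 test, with fold changes and p-values, and 51 other columns of per-sample values were not used. Of 55406 genes, 55141 had a position in GENCODE M21.

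The filter kept genes that reached 10 counts in 4 or more of the 7 libraries. Genotype was tested across them with edgeR 4.0.16 in R 4.3.3 (TMM factors, glmQLFit, glmQLFTest), beside a litter term, and a gene was called when its Benjamini-Hochberg adjusted p fell under 0.05. A standard error is the fold change over the root of F. Single-litter values are differences of mean log2 CPM with a prior count of 2, and values of left-out libraries come from scaling all 9. DESeq2 1.42.0 was an alternative. The scripts were tested on simulated data. Named are every measured gene of the PWS lists and called gene of the interval, every gene called elsewhere, genes the study names, up to 4 members of a list by smallest p, and *Xist*, *Eif2s3y* and *Hoxb8*; the values of some further genes under this rule are not reported here. *Rps15a-ps8*, host and parent genes were named after their values were seen. The libraries, members and 31 lists were chosen with earlier results of these data known. Counting error is all that a floor of 3 counts covers.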

Additional observations from a re-analysis of the deposited data

Results flagged for a closer look

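Genotype effects that differed between the 2 litters, by the interaction term, were found for 2 of the genes called for genotype: *9330162G02Rik* (log2 difference, litter 4 minus litter 1, of -1.73, adjusted p = 0.00189) and *Tmem41b-ps* (-2.68, adjusted p = 0.0239, edgeR). Both rest on 1_10_IC as the single PWS-IC pup of litter 1. Among 75 genes examined in the 4 wild-type pups, 2 had a pup farther from the others than Dixon's 95% limit, where chance flags about 1 in 20. *Ube3a* was low in 1_5_IC, at 188 CPM, and *mt-Ty* was low in 4_3_IC, at 0.655 CPM.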

How the results depend on the processing

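The 53 calls became 31 with at least 10 counts in every library, 0 with the 9 libraries as labelled (1840 genes at an unadjusted p under 0.05), 31 with the genotypes and sexes of the 2 exchanged and sex in the model, 223 in DESeq2, 978 without a filter and 174 with sex in the model (35 shared), and ran from 28 to 55 with a library left out, 28 without 4_3_IC and 31 without 4_6_IC. The count of 25 outside the interval became 16, 0, 10, 199, 934 and 148 under the same settings (16, 0, 3, 25, 25 and 9 of them among the 25), 12 with genotypes alone exchanged (8 among the 25) and 9 without a litter term (9 among the 25), and ran from 9 to 35 with a library left out (14 without 4_5_IC, 9 without 4_3_IC and 12 without 4_6_IC). The 13 glucocorticoid-responsive genes became 8 as labelled, 6 with genotypes and sexes exchanged, 7 with genotypes exchanged and 8 with sex, and ran from 10 to 14 with a library left out. *Ube3a* turned in direction as labelled (-0.15), with sex (-0.022), in litter 1 alone (-0.017) and between its females (-0.069). With genotypes alone exchanged it stood at 0.25 and without 1_10_IC at 0.17, and was called in neither. Of 615 values of single genes under another setting, 408 kept direction and side of the threshold, 198 no longer passed, 5 newly passed and 4 turned. RLE scaling and library sizes without red-cell and mitochondrial genes gave 53 calls each. With 10 counts in at least 3 libraries, which lets in genes of the PWS-IC pups alone, 60 genes were called. Of those, 31 lay outside the interval, 24 higher and 7 lower. With sex in the model 58 genes outside the interval were higher and 90 lower, against 18 and 7. That fit tells genotype from sex through 1_1_IC alone. The causes were not tested. No paired analysis was possible because the labels tie a pup to its litter and to no partner, and litter is already a term. Genes at the filter's limit rest on about 10 counts a library.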

Other observations

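Genes called by the interaction of litter and genotype were chosen after their values were seen, and 2 of them were high, within the 7 pups, in the PWS-IC pups of litter 4 alone. *Tpm3-rs7*, a tropomyosin-related sequence annotated as protein coding, read 38.6 CPM in 4_4_IC and 38.1 in 4_5_IC and 0.948 to 1.49 in the other 5 pups. In the PWS-cr series it ranged from 0.936 to 41.9 CPM with a median of 1.10, so the high level also occurred there. *Capza1-ps1*, a pseudogene of an actin-capping gene, read 8.86 and 8.80 CPM in the same pair and 0.403 to 0.596 in the others. *Mir124a-1hg*, host of a neuronal microRNA, read 30.9 CPM in 1_10_IC and 119 to 166 in the other 6. *Arrdc3* was high in that pup, at 159 CPM against 57.3 to 83.3.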
